A study of Mus musculus with 8 samples.

Results

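The voltage-gated ion channel genes and their relatives, 138 of the 20701 gene symbols in the count table, were taken by name as the symbols beginning with Kcn, Hcn, Scn, Cacna, Cacnb or Cacng, without the noncoding transcript Kcnq1ot1. They comprised 94 potassium, 14 sodium, 26 calcium and 4 pacemaker (Hcn) channel genes. The name rule also takes in potassium channels that are not gated by voltage, such as the inward rectifiers, the tandem-pore (K2P) leak channels and the calcium-activated channels, as well as accessory subunits that do not form a pore. Each symbol was represented by its transcript with the highest mean count.

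Right ventricles with their outflow tracts (OFT/RV) were dissected from mouse embryos at E10.5, and RNA was sequenced from 1 embryo per library. Control embryos (CTRL, n = 4) were wild type and Isl1 hypomorphic embryos (Isl1_hypo, n = 4) were homozygous for the Isl1 f;neo allele, which lowers the level of the LIM-homeodomain transcription factor Isl1, and both were on the C57BL/6 strain. Isl1 marks the second heart field progenitors that build this part of the heart, and the comparison asks which genes differ there when Isl1 is reduced. The f;neo allele is present in every cell of the embryo, so the comparison is not limited to one cell type.

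Ion channels set the electrical behaviour of heart muscle. Sodium channels carry the fast upstroke of the action potential, L-type calcium channels carry the inward current that triggers contraction, T-type calcium channels and the hyperpolarization-activated Hcn channels contribute to spontaneous beating, and potassium channels set the resting potential and end the action potential. In the embryonic tube the outflow tract is a slowly conducting segment, whereas the forming ventricular chamber acquires fast conduction.

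The libraries held 29748458 to 46678973 counts for CTRL and 18422245 to 33050298 for Isl1_hypo, ranges that overlap. Isl1 itself (chr13:117088478-117099896 in mm9, minus strand) measured 29.6, 61.5, 46.2 and 51.3 CPM (counts scaled to library size by the TMM method) in CTRL 1 to 4 and 12.7, 6.86, 7.71 and 11.4 CPM in Isl1_hypo 1 to 4. It was lower in every Isl1_hypo embryo, by -2.29 ± 0.256 on the log2 scale (SE, edgeR quasi-likelihood test, Benjamini-Hochberg adjusted p = 0.0077). The summed level of 8 cardiomyocyte markers, from 30054 to 36071 CPM in CTRL and from 30639 to 36021 CPM in Isl1_hypo, showed heart muscle in all libraries. Of 8 erythroid markers 1 passed an adjusted p of 0.05 in the edgeR test, where 0.145% of all genes tested were called higher. All 8 were higher in Isl1_hypo at an unadjusted p under 0.05, beside 5.69% of all genes. They summed to 43.8 to 153 CPM in CTRL and 174 to 368 CPM in Isl1_hypo, and globin transcripts took 0.212% to 1.19% of the CTRL counts and 1.18% to 2.44% of the Isl1_hypo counts. In such bulk tissue fewer cells of a type and less RNA per cell cannot be told apart. A pair of libraries also stood apart by transcript length: per doubling of length, the log2 level relative to the mean of all libraries changed by 0.119 in CTRL 1 and by -0.108 in Isl1_hypo 3, against -0.0282 to 0.0314 in the other 6. Isl1_hypo 1 stood apart by epithelial markers, with Cldn6 at 38.5 CPM against no more than 0.199 CPM elsewhere, and without it the log2 fold changes were 2.51 for Scn10a, 1.53 for Cacna2d2, -0.86 for Cacna1d and -0.75 for Cacna1h.

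Which channel genes the tissue holds was read from the CTRL embryos. With a limit of a mean of 1 CPM, 63 of the 138 genes were expressed, namely 42 potassium, 6 sodium, 13 calcium and 2 pacemaker channel genes. Levels are compared between genes only as RPKM, in which the authors divided the counts by transcript length and library size. On that scale 28 genes reached a CTRL mean of 1 RPKM and 8 genes reached 5 RPKM. Of the other genes, 9 had no count in any library, among them Kcnc1 and Kcnh8, which encode potassium channel pores known from neurons, and Cacng1, the gamma subunit of the skeletal muscle calcium channel. A count of 0 in the CTRL library with the lowest total allows up to 3 counts among its 29748458.

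The highest CTRL level was that of Kcnj5, at 11.9 ± 1.92 RPKM (SD, n = 4 for this and every mean below). Kcnj5 encodes a subunit of the acetylcholine-activated inward rectifier. Kcnk3, a leak channel that holds the resting potential, came next at 9.54, 13.3, 11.0 and 8.17 RPKM in CTRL 1 to 4, and these first and second levels overlapped. Kcne1l, an X-linked relative of Kcne1 also called Kcne5, measured 9.45 ± 6.04 RPKM and varied most among the leading genes. Kcne1, the accessory subunit of the slow delayed rectifier, followed at 8.67 ± 2.43 RPKM and Kcnh2, the pore of the rapid delayed rectifier, at 8.19 ± 0.667 RPKM. Cacng6, a calcium channel gamma subunit, measured 7.37 ± 1.6 RPKM, Kcnmb1, the beta subunit of the large-conductance calcium-activated potassium channel, 5.94 ± 1.3 RPKM and Cacna1h, a T-type calcium channel pore, 5.71 ± 0.848 RPKM. Kcnma1, the pore that Kcnmb1 accompanies, had at most 15 counts in any library and was not tested. From Kcnj5 down to Cacna1h each gene differed from its neighbour in this order by less than the larger of their SDs.

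**Figure D1:**
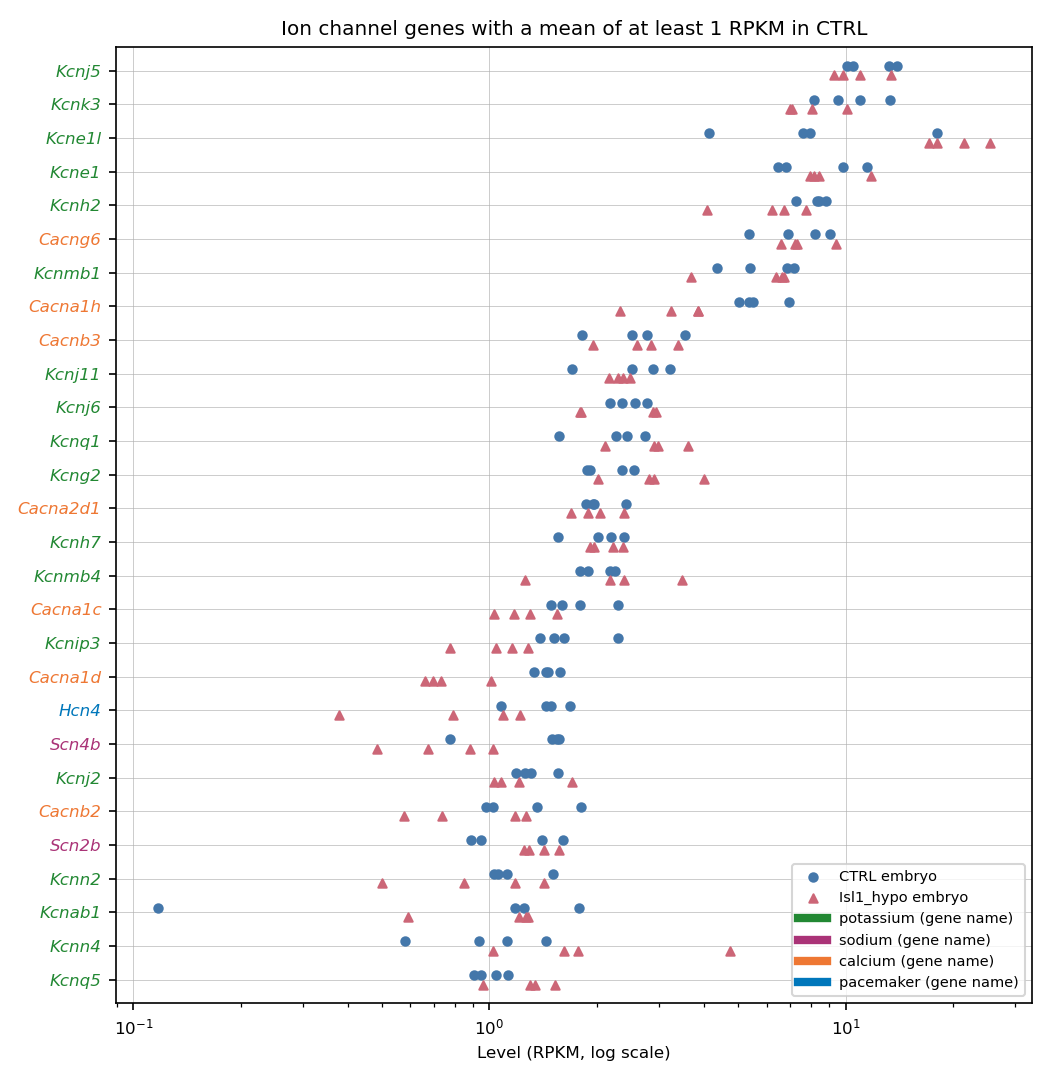
Levels of the 28 channel genes with a CTRL mean of at least 1 RPKM, 1 point per embryo on a log axis, ordered by CTRL mean and with gene names coloured by class. Potassium channel genes fill most of the upper places, Cacna1h and Cacna1d lie to the left in Isl1_hypo without overlap, Kcne1l lies mostly to the right, and 1 CTRL embryo has a low level of Kcnab1.

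Of the 138 genes, 87 had enough counts to be tested (57 potassium, 9 sodium, 18 calcium and 3 pacemaker) and 51 had not, none of which exceeded 1.0 CPM in any library. At an adjusted p under 0.05 over all genes tested, 1 of the 87 was called, Scn10a, which is 1.15% of them beside 0.269% of the 13769 genes tested in the whole table (0.145% higher and 0.123% lower). At an unadjusted p under 0.05 there were 15 channel genes, 6 higher and 9 lower in Isl1_hypo, or 17.2% beside 11.9% of all genes (5.69% higher and 6.17% lower). The 4 CTRL values did not overlap the 4 Isl1_hypo values for 7 channel genes, 4 higher and 3 lower, which is 8.05% beside 8.5% of all genes (4.06% higher and 4.44% lower), so by this count the channel genes lay at the background share. DESeq2 called 7 channel genes (beside 2.32% of all genes) and limma-voom with sample quality weights called 5 (beside 0.973%). The channel genes were split evenly by direction, as 44 were higher and 43 lower, with a median log2 fold change of 0.00 against 0.01 over all genes tested.

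**Figure D2:**
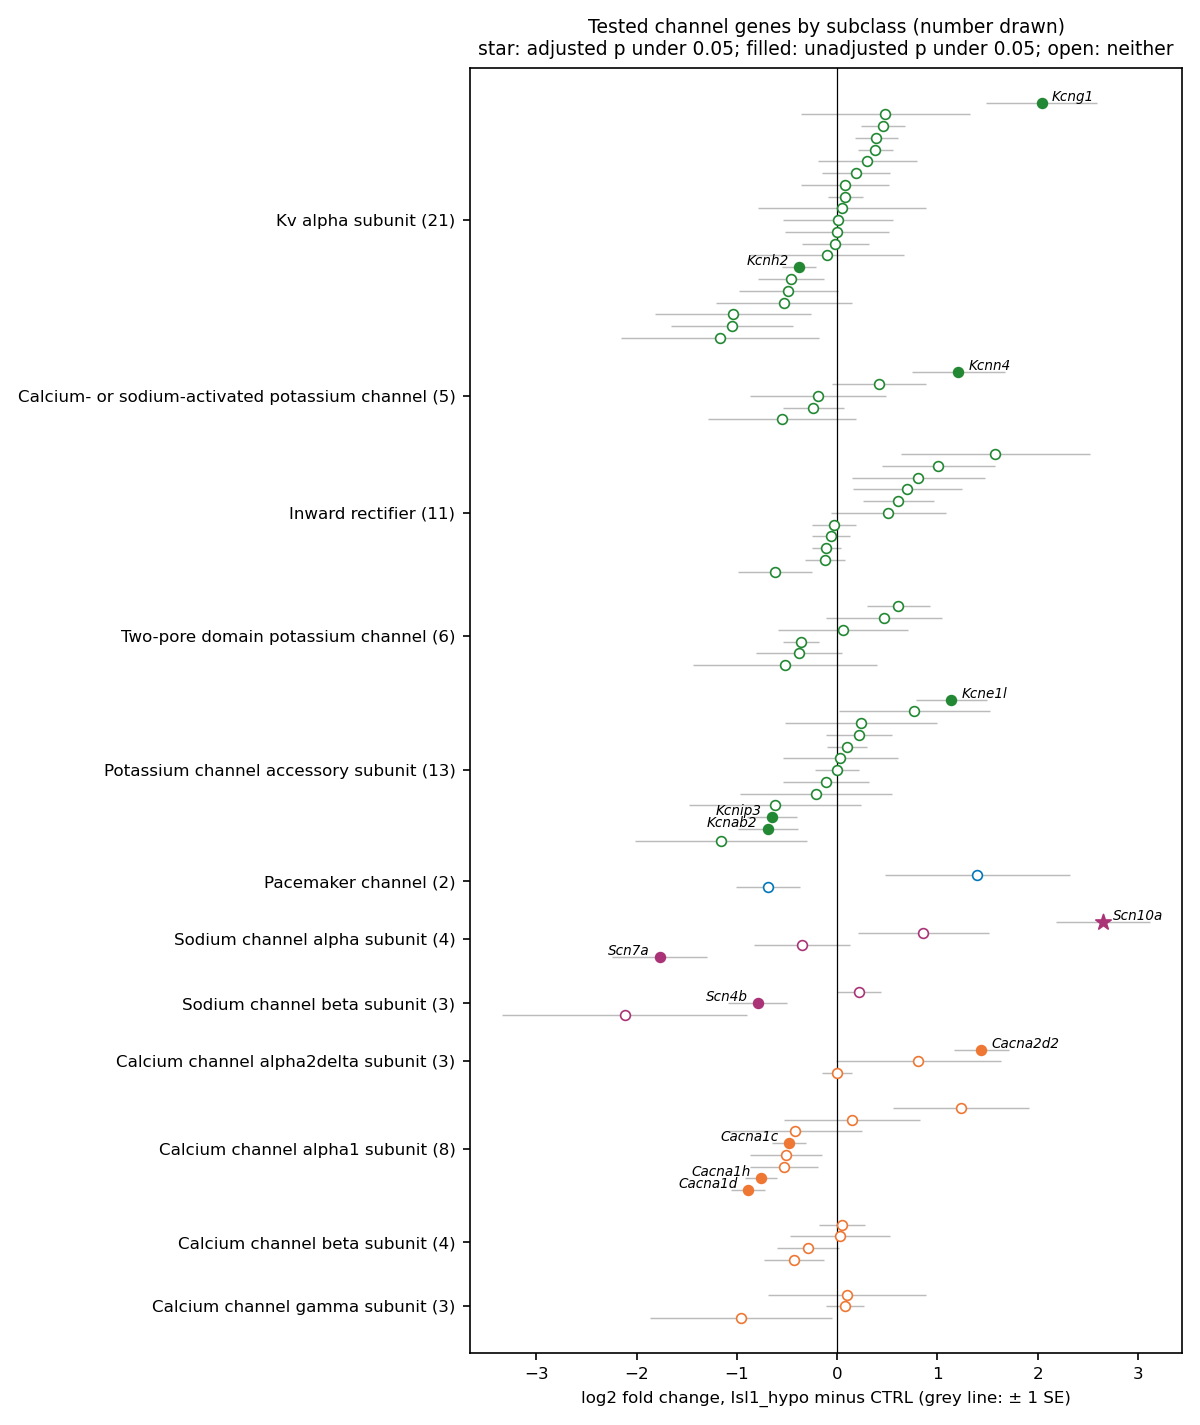
Log2 fold change (Isl1_hypo minus CTRL) of 83 tested channel genes by subclass, with ± 1 SE as grey lines. Scn10a, the star at 2.65, is the single gene past an adjusted p of 0.05, the 13 star or filled symbols have an unadjusted p under 0.05, and the potassium subclasses spread to both sides of 0 while 6 of the 8 calcium channel alpha1 genes lie below it.

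The sodium channel genes held both the largest increase and the largest decrease among the 15. The class had 9 tested genes, 5 higher and 4 lower, with a median log2 fold change of 0.22, and of -0.07 over the 6 expressed at 1 CPM or more in CTRL. Scn10a encodes a tetrodotoxin-resistant pore best known from sensory neurons. Its level was 0.672, 0.369, 0.348 and 0.513 CPM in CTRL 1 to 4, from 14 to 24 counts per library. In Isl1_hypo 1 to 4 it was 3.86, 2.21, 1.9 and 4.01 CPM, from 59 to 116 counts. Every Isl1_hypo embryo was above every CTRL embryo, and the Isl1_hypo mean was 629% of the CTRL mean. Scn10a rose by 2.65 ± 0.468 on the log2 scale (edgeR quasi-likelihood test, adjusted p = 0.0486). The call sat close to the threshold: it was kept when Isl1_hypo 3 was left out (adjusted p = 0.0381) and lost when any other library was (0.079 to 0.175), with log2 fold changes of 2.47 to 2.85. It was also lost with upper quartile scaling (adjusted p = 0.0517), with the libraries thinned to equal depth (0.0574) and with the globin share as a covariate (log2 fold change 2.78, unadjusted p = 0.00597). A set of 7 neuron markers summed to 57.0 to 83.0 CPM in CTRL and 38.7 to 58.2 CPM in Isl1_hypo, and so was not higher where Scn10a was.

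The promoter of Scn10a is shown because it belongs to the called gene. The sequence, from RefSeq on GRCm38.p6, spans 250 bases before to 50 bases after the annotated start and lies at chr9:119718983-119719282 on the minus strand, in another build than the count table, which uses mm9.
Scn10a promoter: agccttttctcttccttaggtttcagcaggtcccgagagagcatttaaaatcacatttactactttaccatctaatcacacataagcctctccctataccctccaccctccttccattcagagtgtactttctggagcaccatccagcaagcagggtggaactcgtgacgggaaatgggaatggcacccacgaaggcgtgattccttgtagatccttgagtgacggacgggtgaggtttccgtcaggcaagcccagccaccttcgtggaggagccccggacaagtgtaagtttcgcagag
It had a GC content of 51.7%, near the median of 52.7% over all 32851 promoters, and 11 CpG, above the median of 7. Motifs were searched on both strands, namely the Isl1 core CTAATG, the T-box site AGGTGTGA, TATAAA, the GATA site AGATAA and the Mef2 consensus (with A or T at each of its 4 central bases), and none of them occurs in this window. CTAATG occurred in 7.36% of all promoters and in 4.38% of the 137 promoters of the 101 channel genes with an entry. The shares were 1.28% and 0.73% for AGGTGTGA, 13.6% and 5.11% for TATAAA, 11.2% and 3.65% for AGATAA, and 0.557% and 0.73% for the Mef2 consensus. The channel gene shares rest on 6, 1, 7, 5 and 1 promoters in this order, and their difference from all promoters was not tested.

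In mm9 Scn10a occupies chr9:119517584-119603478 and its neighbour Scn11a chr9:119662881-119734574, both on the minus strand with 59.4 kb between them. Scn11a, another sensory neuron channel, had 0, 4, 6 and 5 counts in CTRL and 9, 23, 1 and 9 in Isl1_hypo and was not tested.

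Scn7a, an atypical sodium channel that responds to sodium level rather than to voltage, lay in the opposite direction. Its values were 14.7, 6.64, 8.67 and 3.57 CPM in CTRL and 0.923, 2.89, 2.15 and 3.81 CPM in Isl1_hypo. CTRL 4, the CTRL library richest in globin, fell within the Isl1_hypo range. It differed by -1.77 ± 0.472 on the log2 scale (edgeR adjusted p = 0.188, unadjusted p = 0.00306), and DESeq2 called it (adjusted p = 0.012). With the globin share as a covariate the log2 fold change was -0.61 (unadjusted p = 0.385). Neural crest and Schwann precursor markers, of which Sox10 and Foxd3 were at or near 0 in all libraries, summed to 22.9 to 38.9 CPM in CTRL and 8.31 to 27.7 CPM in Isl1_hypo, and their part in the Scn7a values was not tested.

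The neuronal pore Scn8a showed no overlap between the groups, but it stayed under 0.51 CPM in every library and had an unadjusted p of 0.214 in the edgeR quasi-likelihood test. Scn2a, a further neuronal pore, differed by -0.35 ± 0.478 and overlapped.

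Among the sodium channel beta subunits, which tune the gating and surface level of the pore, Scn4b measured 10.2, 10.9, 10.9 and 5.37 CPM in CTRL and 4.67, 7.16, 3.48 and 6.19 CPM in Isl1_hypo. CTRL 4 lay inside the Isl1_hypo range and the other CTRL embryos above it. The log2 fold change was -0.79 ± 0.294 (edgeR adjusted p = 0.315) and became 0.05 with the globin level as a covariate. Scn2b, at 6.63 to 12.0 CPM in CTRL and 9.34 to 12.2 CPM in Isl1_hypo, overlapped. Scn3b ranged from 0 to 2.21 CPM in CTRL and from 0 to 0.487 CPM in Isl1_hypo.

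Of the 8 tested calcium channel pores (Cacna1 genes) 6 were lower in Isl1_hypo, with a median log2 fold change of -0.50, where 6762 of all 13769 genes were lower. None passed an adjusted p of 0.05 in the edgeR test. At an unadjusted p under 0.05 there were 3, all lower, beside 6.17% of all genes, and DESeq2 called Cacna1d and Cacna1h, beside 2.32% of all genes. Cacna1d, an L-type pore with a role in pacemaking, measured 20, 18.7, 22.6 and 20.6 CPM in CTRL and 10.3, 9.89, 9.7 and 14.4 CPM in Isl1_hypo. The groups were well apart, and Isl1_hypo 4 lay above the other Isl1_hypo embryos. Cacna1d differed by a log2 fold change of -0.89 ± 0.168 (edgeR adjusted p = 0.0597, DESeq2 adjusted p = 0.000318).

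The T-type pore Cacna1h, the calcium channel gene with the highest pore level, measured 91.1, 67.3, 74.7 and 71.8 CPM in CTRL and 43.3, 52.1, 32.3 and 52.0 CPM in Isl1_hypo. These groups did not overlap either, and the log2 fold change was -0.76 ± 0.164 (edgeR adjusted p = 0.0958, DESeq2 adjusted p = 0.00166). Cacna1c, the main L-type pore of the heart, measured 48.9, 32.3, 35.1 and 38.9 CPM in CTRL and 28.3, 34.0, 23.4 and 25.7 CPM in Isl1_hypo. Here Isl1_hypo 2 reached into the CTRL range, and the log2 fold change was -0.48 ± 0.166 (edgeR adjusted p = 0.303, unadjusted p = 0.0143). The highest value was in CTRL 1, which stood apart by transcript length, and with the length trend removed the Cacna1c log2 fold change was -0.27 (unadjusted p = 0.0884). The T-type gene Cacna1g was low in both groups, at 0.916 ± 0.52 and 1.01 ± 0.591 CPM.

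The sum over the Cacna1 genes was 12.1, 8.93, 10.2 and 9.56 RPKM in CTRL and 6.38, 7.12, 4.52 and 6.99 RPKM in Isl1_hypo, without overlap. The make-up moved less than the sum, since Cacna1h took 56.0% ± 1.36 of it in CTRL and 52.7% ± 2.1 in Isl1_hypo, Cacna1c 17.5% ± 1.6 and 20.4% ± 2.66, and Cacna1d 14.4% ± 1.65 and 12.5% ± 2.36. Of the 8 cardiomyocyte markers 6 were also lower, with a median log2 fold change of -0.21. At an unadjusted p under 0.05 in the edgeR test 3 were lower, beside 6.17% of all genes. Of these the sarcomere genes Myh7 (log2 fold change -0.49) and Ttn (-0.90) did not overlap between the groups, where 4.44% of all genes were lower without overlap. The part of muscle content in the calcium channel values was not tested. Endothelial markers summed to 644 to 751 CPM in CTRL and 492 to 631 CPM in Isl1_hypo, and their part in the calcium channel values was not tested.

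The alpha2delta subunits, which carry the calcium channel to the cell surface, had 3 tested genes, of which 1, Cacna2d2, was higher at an unadjusted p under 0.05, beside 5.69% of all genes, and none was called by the edgeR test. Cacna2d2 measured 8.13, 3.99, 3.63 and 4.47 CPM in CTRL and 10.9, 12.7, 13.2 and 17.6 CPM in Isl1_hypo. All Isl1_hypo embryos were higher than all CTRL embryos, and CTRL 1 was the highest of its group. On the log2 scale Cacna2d2 differed by 1.44 ± 0.277 (edgeR adjusted p = 0.0616), and the threshold was passed without CTRL 1 (log2 fold change 1.75, adjusted p = 0.0313). By edgeR it was also passed with the length trend removed (1.56, adjusted p = 0.0439) and with the libraries thinned to equal depth (1.43, adjusted p = 0.0486). DESeq2 and limma-voom both called Cacna2d2, at adjusted p of 0.000204 and 0.00859, so that 5 of the 20 alternatives called it. Cacna2d1, the more abundant subunit, measured 24.6 ± 2.62 CPM in CTRL and 24.6 ± 4.08 CPM in Isl1_hypo. Cacna2d2 therefore made up 20.6% ± 4.44 of the summed RPKM of these subunits in CTRL and 41.5% ± 4.4 in Isl1_hypo, again without overlap.

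**Figure D3:**
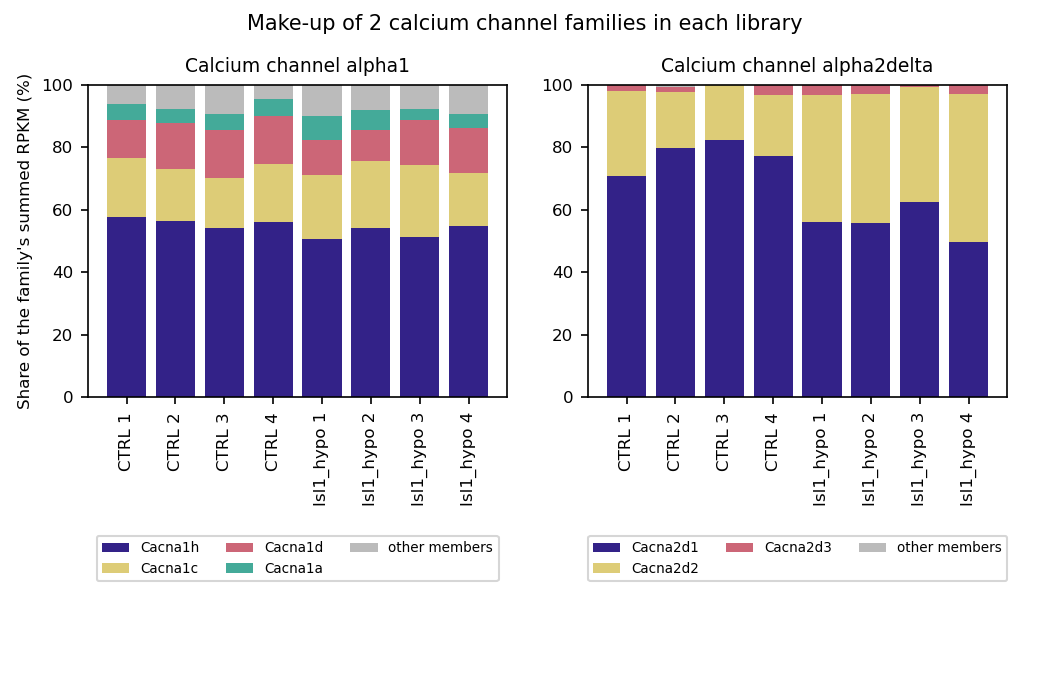
Share of the summed RPKM of 2 calcium channel families taken by each gene, 1 bar per embryo. In the Isl1_hypo embryos the alpha1 pores keep a make-up close to that of CTRL, while Cacna2d2 takes more of the alpha2delta subunits.

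The promoters of Cacna2d2 and Cacna1d are given as those of the calcium channel genes with the lowest p-values, both from RefSeq on GRCm38.p6. The Cacna2d2 promoter lies at chr9:107399630-107399929 on the plus strand and is rich in GC (75.7%, 43 CpG). Cacna1d has an upstream start at chr14:30491107-30491406 (GC 40.3%, 4 CpG) and a downstream start at chr14:30353437-30353736 (GC 87.3%, 63 CpG), both on the minus strand, which differ widely in base composition. Capitals mark TATAAA on either strand, where overlapping matches run together.
Cacna2d2 promoter: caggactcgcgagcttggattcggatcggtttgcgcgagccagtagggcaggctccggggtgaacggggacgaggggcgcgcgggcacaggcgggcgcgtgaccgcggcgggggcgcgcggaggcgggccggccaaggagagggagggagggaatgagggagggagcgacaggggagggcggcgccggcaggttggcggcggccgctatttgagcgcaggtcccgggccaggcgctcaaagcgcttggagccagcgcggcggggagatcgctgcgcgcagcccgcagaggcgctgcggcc
Cacna1d upstream promoter: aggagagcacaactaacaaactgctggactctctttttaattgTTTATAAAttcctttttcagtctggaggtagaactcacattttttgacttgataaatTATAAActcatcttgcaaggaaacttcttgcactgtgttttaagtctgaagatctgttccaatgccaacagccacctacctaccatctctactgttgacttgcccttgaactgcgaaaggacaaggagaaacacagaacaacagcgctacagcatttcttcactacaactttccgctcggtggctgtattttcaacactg
Cacna1d downstream promoter: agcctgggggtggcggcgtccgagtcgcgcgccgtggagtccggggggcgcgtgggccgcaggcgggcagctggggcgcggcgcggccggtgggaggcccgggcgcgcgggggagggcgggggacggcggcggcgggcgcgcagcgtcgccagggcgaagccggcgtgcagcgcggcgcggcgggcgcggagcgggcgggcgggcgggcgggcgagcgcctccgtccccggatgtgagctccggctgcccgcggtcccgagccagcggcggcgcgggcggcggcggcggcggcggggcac
None of the 5 motifs other than TATAAA in the Cacna1d upstream window was found in these 3 windows. The counts were made per transcript, and which of the Cacna1d starts was used was not examined.

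The calcium channel beta subunits, which bind the pore inside the cell, and the gamma subunits overlapped between the groups throughout. Cacnb3 measured 11.1 ± 2.84 CPM in CTRL and 11.4 ± 2.56 CPM in Isl1_hypo, and Cacnb2, the main beta subunit of adult heart muscle, 8.29 ± 2.52 and 6.13 ± 2.17 CPM, a log2 fold change of -0.43 ± 0.301, which was -0.23 without CTRL 4, -0.26 without Isl1_hypo 3 and -0.81 with the globin covariate. Cacng6, the gamma subunit with the highest level, measured 18.1 ± 3.95 and 19.0 ± 3.41 CPM, and Cacng8, a gamma subunit best known from neurons, 0.364 ± 0.29 and 0.392 ± 0.17 CPM. No beta or gamma subunit gene reached an unadjusted p of 0.05 in the edgeR test, beside 11.9% of all genes. The calcium class as a whole had 8 genes higher and 10 lower with a median log2 fold change of -0.15, and of -0.42 over the 13 expressed at 1 CPM or more in CTRL.

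**Figure D4:**
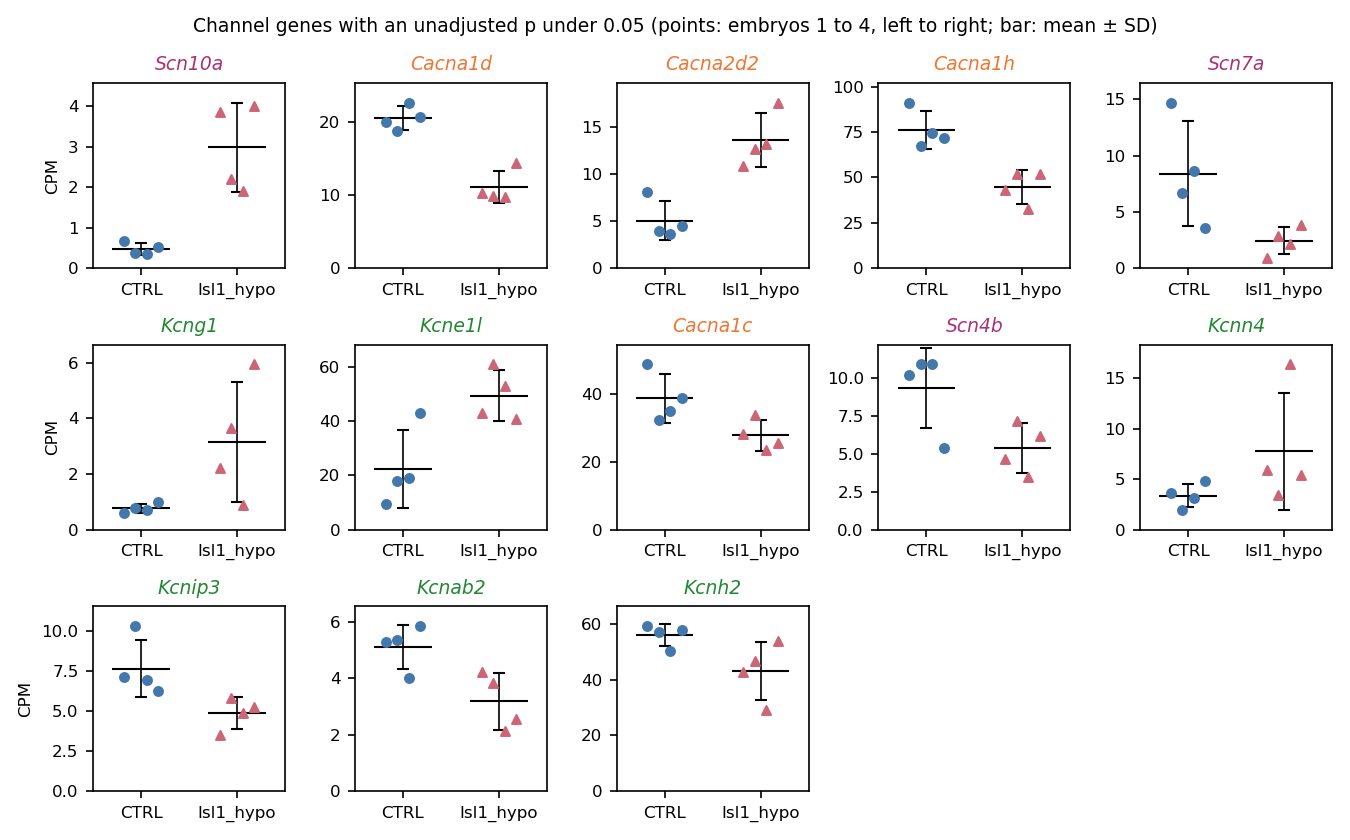
CPM in each embryo for 13 channel genes with an unadjusted p under 0.05, in order of p, with the mean and SD of each group and each axis starting at 0. Scn10a, Cacna1d, Cacna2d2, Cacna1h and Kcnip3 show no overlap between the groups, and Isl1_hypo 3 carries the high value of Kcnn4 and the low value of Kcng1 among the Isl1_hypo embryos.

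The pacemaker channels were represented mainly by Hcn4, the pore of the embryonic and sinus node pacemaker current. It measured 9.05, 10.4, 6.75 and 8.93 CPM in CTRL and 4.89, 7.61, 2.43 and 6.82 CPM in Isl1_hypo, with Isl1_hypo 2 and 4 inside the CTRL range. The log2 fold change was -0.69 ± 0.319 (edgeR adjusted p = 0.427). For Hcn4 it was -0.44 without Isl1_hypo 3, the lowest library, and -0.36 with the globin level as a covariate.

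Hcn3, a low member of the family, measured from 0.149 to 0.344 CPM in CTRL and 0.815, 0, 0.98 and 0.657 CPM in Isl1_hypo. Its values are uncertain because 17.1% of its exon bases lie under the red cell pyruvate kinase gene Pklr and reads were counted without strand. Hcn2, the other cardiac member, had at most 6 counts per library and was not tested.

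The potassium channel genes, the largest class, were balanced, with 30 higher and 27 lower of 57 tested, a median log2 fold change of 0.01, and 3 genes on each side at an unadjusted p under 0.05, beside 5.69% higher and 6.17% lower over all genes, and none was called by the edgeR test. Among the 22 voltage-gated (Kv) pores, Kcnh2 measured 59.3, 57.0, 50.4 and 57.8 CPM in CTRL and 42.8, 46.6, 29.1 and 53.7 CPM in Isl1_hypo. Isl1_hypo 4 overlapped the CTRL range and Isl1_hypo 3 was the lowest, with a log2 fold change of -0.38 ± 0.17 (edgeR adjusted p = 0.406), which was -0.23 without Isl1_hypo 3 and -0.24 with the globin covariate. Kcnh2 made up 38.4% ± 2.04 of the summed Kv RPKM in CTRL and 28.9% ± 3.59 in Isl1_hypo, while the sum itself was 21.4 ± 1.73 and 21.1 ± 2.96 RPKM. Kcnq1, the pore of the slow delayed rectifier, measured 11.1 ± 2.39 CPM in CTRL and 14.5 ± 3.09 CPM in Isl1_hypo, a log2 fold change of 0.39 ± 0.215, which was 0.25 without CTRL 3 and 0.26 without Isl1_hypo 2.

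Kcng1, a silent subunit that modifies other Kv pores, measured 0.608, 0.787, 0.695 and 0.983 CPM in CTRL and 2.23, 3.64, 0.885 and 5.95 CPM in Isl1_hypo. Isl1_hypo 3 stayed within the CTRL range and the other 3 lay above it, with a log2 fold change of 2.04 ± 0.553 (edgeR adjusted p = 0.195, DESeq2 adjusted p = 0.0183). The transient outward current genes were low: Kcnd2 measured 2.41 ± 0.778 CPM in CTRL and 1.72 ± 0.987 CPM in Isl1_hypo, and Kcnd3 0.753 ± 0.374 and 0.764 ± 0.17 CPM. Their accessory subunit Kcnip2 measured 1.17 ± 0.542 and 0.525 ± 0.388 CPM. Kcna5, the atrial ultrarapid rectifier, measured 4.86 ± 2.38 and 5.14 ± 1.81 CPM.

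The inward rectifiers, which hold the resting potential, had 11 tested genes. None had an unadjusted p under 0.05 in the edgeR test, beside 11.9% of all genes. Kcnj5 measured 100, 77, 98.2 and 74.0 CPM in CTRL and 72.3, 99.2, 71.0 and 81.8 CPM in Isl1_hypo, which overlapped throughout (log2 fold change -0.11 ± 0.144). Its partner in the acetylcholine-activated channel, Kcnj3, measured 3.91 ± 1.65 and 5.96 ± 1.9 CPM, with 31.1% of its exon bases under the gene model Gm17595. Kcnj2, the main pore of the ventricular resting current, measured 11.8 ± 1.26 and 11.3 ± 2.7 CPM, and the related Kcnj12 3.13 ± 0.913 and 2.03 ± 0.687 CPM. The ATP-sensitive pores Kcnj11 and Kcnj8 measured 13.1 ± 3.14 and 12.0 ± 0.874 CPM, and 1.31 ± 0.865 and 2.14 ± 0.757 CPM. The make-up of the family was likewise similar, with Kcnj5 at 59.6% ± 3.84 of the summed RPKM in CTRL and 56.8% ± 5.3 in Isl1_hypo.

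Of the K2P leak channels, Kcnk3 measured 58.1, 82.7, 69.6 and 50.9 CPM in CTRL and 43.4, 44.5, 65.5 and 50.6 CPM in Isl1_hypo, a log2 fold change of -0.36 ± 0.177 with overlapping groups, which was -0.22 without CTRL 2 and -0.16 with the globin covariate. Kcnk6 measured 6.17 ± 3.22 and 4.77 ± 2.58 CPM. The calcium-activated channels included Kcnn2, a small-conductance channel of atrial muscle, at 7.08 ± 1.37 CPM in CTRL and 6.00 ± 2.4 CPM in Isl1_hypo.

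Kcnn4, the intermediate-conductance channel that red cells also carry, measured 3.65, 1.92, 3.13 and 4.77 CPM in CTRL and 5.87, 3.41, 16.4 and 5.43 CPM in Isl1_hypo. Isl1_hypo 3, which had the largest globin share (2.44%), held the highest value, and Isl1_hypo 2 lay within the CTRL range. The part of red cells in the Kcnn4 values was not tested. Kcnn4 differed by a log2 fold change of 1.21 ± 0.461 (edgeR adjusted p = 0.327). It was 0.54 without Isl1_hypo 3 and 0.03 with the globin level as a covariate.

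Among the accessory subunits, Kcne1l measured 9.57, 17.9, 18.9 and 42.8 CPM in CTRL and 42.9, 60.8, 52.7 and 40.7 CPM in Isl1_hypo. CTRL 4 lay within the Isl1_hypo range and the other CTRL embryos well below it, and the CTRL values lay in the order of the globin shares of those libraries (0.212%, 0.273%, 0.464% and 1.19%). The Isl1_hypo values did not, as the highest was in Isl1_hypo 2, which had the smallest globin share of that group (1.18%), and the part of red cells in the Kcne1l values was not tested. The log2 fold change was 1.14 ± 0.357 (edgeR adjusted p = 0.259), 1.67 without CTRL 4 (adjusted p = 0.0289) and 0.26 with the globin level as a covariate. Its relative Kcne1 measured 44.4 ± 11.9 CPM in CTRL and 47.5 ± 9.29 CPM in Isl1_hypo.

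Kcnip3, a calcium-binding partner of Kv pores, measured 7.1, 10.3, 6.9 and 6.24 CPM in CTRL and 3.48, 5.81, 4.87 and 5.26 CPM in Isl1_hypo, without overlap. Its log2 fold change was -0.65 ± 0.247 (edgeR adjusted p = 0.327), and -0.28 with the globin level as a covariate. Kcnab2, a cytoplasmic beta subunit, measured 5.28, 5.34, 4.02 and 5.86 CPM in CTRL and 4.24, 3.82, 2.12 and 2.56 CPM in Isl1_hypo. Only Isl1_hypo 1 reached the CTRL range, and the log2 fold change was -0.69 ± 0.295 (edgeR adjusted p = 0.386).

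Proteins that anchor or modulate these channels were followed in a list of 24 genes, of which 21 were tested. By the edgeR test none passed an adjusted p of 0.05, and 4 passed an unadjusted p of 0.05, 1 higher and 3 lower, beside 5.69% higher and 6.17% lower over all genes. Ank3, an ankyrin that anchors sodium channels, measured 147 ± 16.2 CPM in CTRL and 103 ± 9.24 CPM in Isl1_hypo, a log2 fold change of -0.51 ± 0.113. Ank2, a second ankyrin of heart muscle, measured 36.0 ± 4.16 and 29.5 ± 0.843 CPM. Gem, a small GTPase that restrains L-type calcium channels, measured 42.1 ± 1.95 and 26.2 ± 7.47 CPM, a log2 fold change of -0.69 ± 0.19. The gene on the higher side was Calm3, a calmodulin gene, at 121 ± 10.7 and 150 ± 11.4 CPM.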

How the data were processed

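Polyadenylated RNA of 8 single embryos (4 CTRL, 4 Isl1_hypo) was sequenced on BGISEQ-500, and groups were taken from the sample labels. The deposited counts are whole exon read counts per RefSeq transcript (31507 transcripts), which the authors made with STAR on mm9 and HOMER without regard to strand, so that overlapping and antisense genes share reads. The authors also deposited RPKM values, which edgeR gave from these counts and the transcript lengths. The deposited table also holds the authors' own DESeq2 comparison, as a mean normalized signal, a log2 fold change with its error, a Wald statistic (a score) and p-values, and none of these columns was used.

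A symbol was represented by its transcript of highest mean count, and libraries were scaled by TMM. The 13769 genes that passed filterByExpr were tested with the edgeR quasi-likelihood test (edgeR 4.0.16, limma 3.58.1, DESeq2 1.42.0, R 4.3.3) without covariates, with Benjamini-Hochberg adjustment over the whole table. The SE of a log2 fold change was taken from the F statistic (absolute log2 fold change over the root of F), and the prior count was 2. The limit of 1 CPM used totals without TMM scaling. The script was tested on simulated counts. No pair of libraries within a group agreed within sampling noise (chi-square per gene from 20.8 to 119). p-values measure the spread between single embryos, and a count of 0 covers counting error only.

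Named genes were Isl1, channel genes with an unadjusted p under 0.05, those with the highest CTRL RPKM of each subclass and a panel of cardiac channels. A few others (Kcnma1, Kcnmb1, Kcnc1, Kcnh8, Cacng1, Scn2a, Scn3b, Scn8a, Scn11a, Kcnab1) were named after their values were seen. Some members are counted but not reported here by name or drawn. The gene group, lists and tests were chosen with earlier results of these data known. Alternatives were other scalings, tests and filters, the longest transcript, globin, length and depth corrections, a replicate block, and leaving out each library.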

Additional observations from a re-analysis of the deposited data

Results flagged for a closer look

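In 76 groups of 4 libraries, 5 held a value whose gap to the nearest other value exceeded Dixon's 95% limit as a share of the group's range, where chance gives about 3.8. Kcna5 was at 2.44 CPM in Isl1_hypo 2 against 5.85 to 6.2 CPM in the other Isl1_hypo libraries. In the same library Kcne1 was at 61.3 CPM against 41.4 to 43.8, and Hcn3 at 0 CPM against 0.657 to 0.98. Cacna1d was at 14.4 CPM in Isl1_hypo 4 against 9.7 to 10.3, still below every CTRL library. Scn4b was at 5.37 CPM in CTRL 4 against 10.2 to 10.9.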

How the results depend on the processing

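Under all 20 alternatives the log2 fold changes of Isl1, Scn10a, Cacna1d, Cacna1h and Cacna2d2 kept their direction, but calls moved. The number of channel genes called (1) was 7 by DESeq2, 5 by limma-voom and 3 with the length trend removed. At an adjusted p under 0.10 (a limit chosen after seeing the data) it was 5. It was 0 with upper quartile scaling (16 at an unadjusted p under 0.05) and 0 with a replicate block (17, Scn10a adjusted p = 0.116). With the globin level as a covariate it was also 0 (8). All are by edgeR where no other test is named. Without 1 library the number was 0 to 2. It was 0 without CTRL 2, CTRL 3, Isl1_hypo 1, Isl1_hypo 2 or Isl1_hypo 4, and 2 without Isl1_hypo 3. For all genes (37) these counts were 319 by DESeq2, 134 by limma-voom, 100 at 0.10, 0 with the block (1582), 0 under globin adjustment (499) and 4 to 48 without 1 library (8, 5 and 4 without CTRL 1, 2 and 3, and 12 and 11 without Isl1_hypo 2 and 4). The Isl1 log2 fold change was -2.29 (adjusted p = 0.0722) with the block and -2.30 (adjusted p = 0.519) with the globin covariate. Same-numbered libraries did not deviate together (correlations of -0.0209 to 0.0219), so the numbers do not pair the embryos. Globin was mostly higher in Isl1_hypo, so the covariate cannot be fully told apart from genotype.

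The potassium median was 0.10 with the length trend removed and -0.09 to 0.15 without 1 library. The sodium median (0.22) was 0.08 by limma-voom, 0.05 when globin was a covariate, and ranged from 0.07 (without Isl1_hypo 3) to 0.27 without 1 library. The calcium median (-0.15) was 0.14 with the globin covariate, -0.01 without a filter, -0.37 when thinned or with at least 10 counts in every library, and -0.23 to 0.05 without 1 library (0.05 without CTRL 1), and the pacemaker median (-0.69) turned to 0.35 without a filter and was -1.06 when thinned, -0.36 with the globin covariate and -0.90 to -0.44 without 1 library. Expressed genes numbered 35 at 5 CPM and 28 at 1 RPKM. Log2 fold changes reversed for Cacna2d1 (0.15, length trend removed), Hcn3 (-0.25, limma-voom) and, with the globin covariate, Kcnj2 (0.13), Kcnj3 (-0.22), Kcnj5 (0.11), Kcnj8 (-0.29), Kcnk6 (0.09) and Scn4b (0.05), the cause was not tested, and a sign change smaller than its SE was not counted. Depth limits Scn10a, with 14 to 24 counts per CTRL library.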

Other observations

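Transcription factors known to pattern the conduction system and the chambers were followed in a list of 12 genes. By the edgeR test none passed an adjusted p of 0.05, 10 of the 12 were higher in Isl1_hypo, and 4 were higher at an unadjusted p under 0.05, beside 5.69% of all genes tested. Hopx, a homeodomain protein that acts without binding DNA, measured 157 ± 29.9 CPM in CTRL and 249 ± 32.1 CPM in Isl1_hypo, a log2 fold change of 0.66 ± 0.149. Tbx18, a T-box factor of the sinus horns and epicardium, measured 18.3 ± 10.8 and 38.3 ± 6.59 CPM. Shox2, a homeodomain factor of the sinus node, measured 0.611 ± 0.136 and 1.6 ± 0.725 CPM, and Irx5, an Iroquois factor of the ventricle, 8.69 ± 1.55 and 12.2 ± 2.62 CPM. Etv1, an ETS factor of fast-conducting muscle, measured 11.8 ± 0.524 and 11.6 ± 1.62 CPM.

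The 6 epithelial markers, of which the 3 tested were higher at an unadjusted p under 0.05 in the edgeR test (beside 5.69% of all genes) and none was called at an adjusted p under 0.05, summed to 67.9 to 115 CPM in CTRL and 124 to 302 CPM in Isl1_hypo, the most in Isl1_hypo 1. Krt8 and Krt18 made up most of the sum in every library, while Cldn6 (38.5 CPM), Cdh1 (15.3 CPM), Epcam (9.83 CPM) and Esrp1 (6.03 CPM) were high in Isl1_hypo 1 alone, at no more than 1.87 CPM in any other library. Macrophage markers summed to 6.53 to 15.3 and 4.87 to 16.6 CPM, smooth muscle markers to 5106 to 7613 and 5178 to 7504 CPM, and mesenchyme markers to 1542 to 2310 and 844 to 2872 CPM, all overlapping. Their part in the channel values was not tested.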
